A study of Mus musculus with 43 samples.

Results

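Intestinal organoids are closed epithelial structures grown in a gel from crypt cells, in which stem cells divide beside absorptive and secretory daughters. Here the organoids were wild-type (WT) C57BL/6 mouse primary intestinal organoids that received no radiation. The cultures were given 2 ng/mL transforming growth factor beta 1 (TGFB1) or vehicle on day 6, and both groups were collected 24 h later, at day 7 (D7). Bulk RNA-seq gave 3 libraries of each group, 6 of the 43 samples in the series. The response was read over all genes whose mean over these 6 libraries was at least 1 FPKM (fragments scaled to transcript length and to the library total), which held for 11330 of 23951 genes listed. Genes next to that limit were Tppp and Abi2 (mean 1.00 FPKM each) on the inside and Map3k6 (0.998 FPKM) and LOC101055769 (0.999 FPKM) on the outside.

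The libraries summed to 521391 to 554313 FPKM and held 11175 to 11312 genes above 1 FPKM. The read depth is unknown, because the files give FPKM and no counts. The median coefficient of variation of genes at 10 FPKM or more was 3.13% among the vehicle libraries and 3.66% among the TGFB1 libraries. Nothing in the labels says that the 3 libraries of a group came from separate mice or cultures, so the p-values measure the spread between these libraries, which may be technical. Some genes that every cell uses were listed near 0: Gapdh lay between 0.585 and 1.15 FPKM, Rpl11 at no more than 0.916 FPKM and Rpl17 at no more than 0.315 FPKM. A low or 0 entry is therefore reported as listed, not as absence of the transcript.

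The label was checked against markers of the cells that such a culture could hold. All 8 epithelial markers were present, and their summed level ran from 5980 to 6060 FPKM with vehicle and from 13954 to 14525 FPKM with TGFB1. Of these, 7 rose (Epcam, Cdh1, Vil1, Krt8, Krt18, Krt19 and Cldn7) and the intestinal transcription factor Cdx2 fell. The keratins Krt8, Krt18 and Krt19 made up most of the rise of the sum. Krt19 was at 1593, 1591 and 1604 FPKM with vehicle and 4238, 4465 and 4205 FPKM with TGFB1. Cldn7 was at 837, 823 and 834 FPKM with vehicle and 1070, 1075 and 1060 FPKM with TGFB1. The sum is therefore no measure of the amount of epithelium. Mesenchymal markers stayed at 0.885 FPKM or less in sum over 8 genes, with Dcn at 0 in every library. The endothelial sum over 4 genes was at most 0.232 FPKM, and the sum over 4 neuronal and glial genes at most 1.19 FPKM. In bulk libraries, fewer cells of a type and less RNA per cell cannot be told apart. Among 6 immune markers only Cd68, a lysosomal membrane protein of macrophages, and Itgam reached the tests, and Ptprc, the marker of all leukocytes, stayed at 0.0584 FPKM or less. The immune sum was 9.52 to 11.4 FPKM with vehicle and 22.01 to 24.1 FPKM with TGFB1, of which Cd68 made up the most (from 8.57 to 21.8 FPKM). The part of other cells in the results was not tested beyond these levels.

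TGFB1 binds a pair of serine/threonine kinase receptors that phosphorylate SMAD2 and SMAD3. These join SMAD4 and act on target genes together with other factors such as AP-1, while SMAD7 and the corepressor SKIL close the circuit. In the gut epithelium the pathway is known for slowing division, and it is known in wound epithelium for raising matrix, integrin and cytoskeletal genes.

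Values were tested as log2(FPKM + 1) with limma, and a gene is called where its Benjamini-Hochberg adjusted p is under 0.05. Called higher with TGFB1 were 33.3% of the genes tested and called lower were 34.9%, so that a call alone says little about a gene. Levels given as from 1 value to another are means of the 3 vehicle and the 3 TGFB1 libraries, and a number alone in parentheses after a gene or its levels is its log2 change. At least 2-fold and called were 5.52% (higher) and 2.92% (lower). The median log2 change of all genes was −0.02 (5th percentile −0.80, 95th percentile 1.07), on a scale that sets each library to its own total. The libraries of both groups did not overlap for 8167 of the 11330 genes (72.1%), so that groups without overlap are the usual case. Each group of genes below is read against these shares. The 75 lists held 2484 genes of the table, of which 1751 were tested and 733 lay under 1 FPKM. For 82 of those tested, 1 group had a mean under 1 FPKM (53 of them higher with TGFB1), and such genes passed the limit through the group in which they were high.

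**Figure D1:**
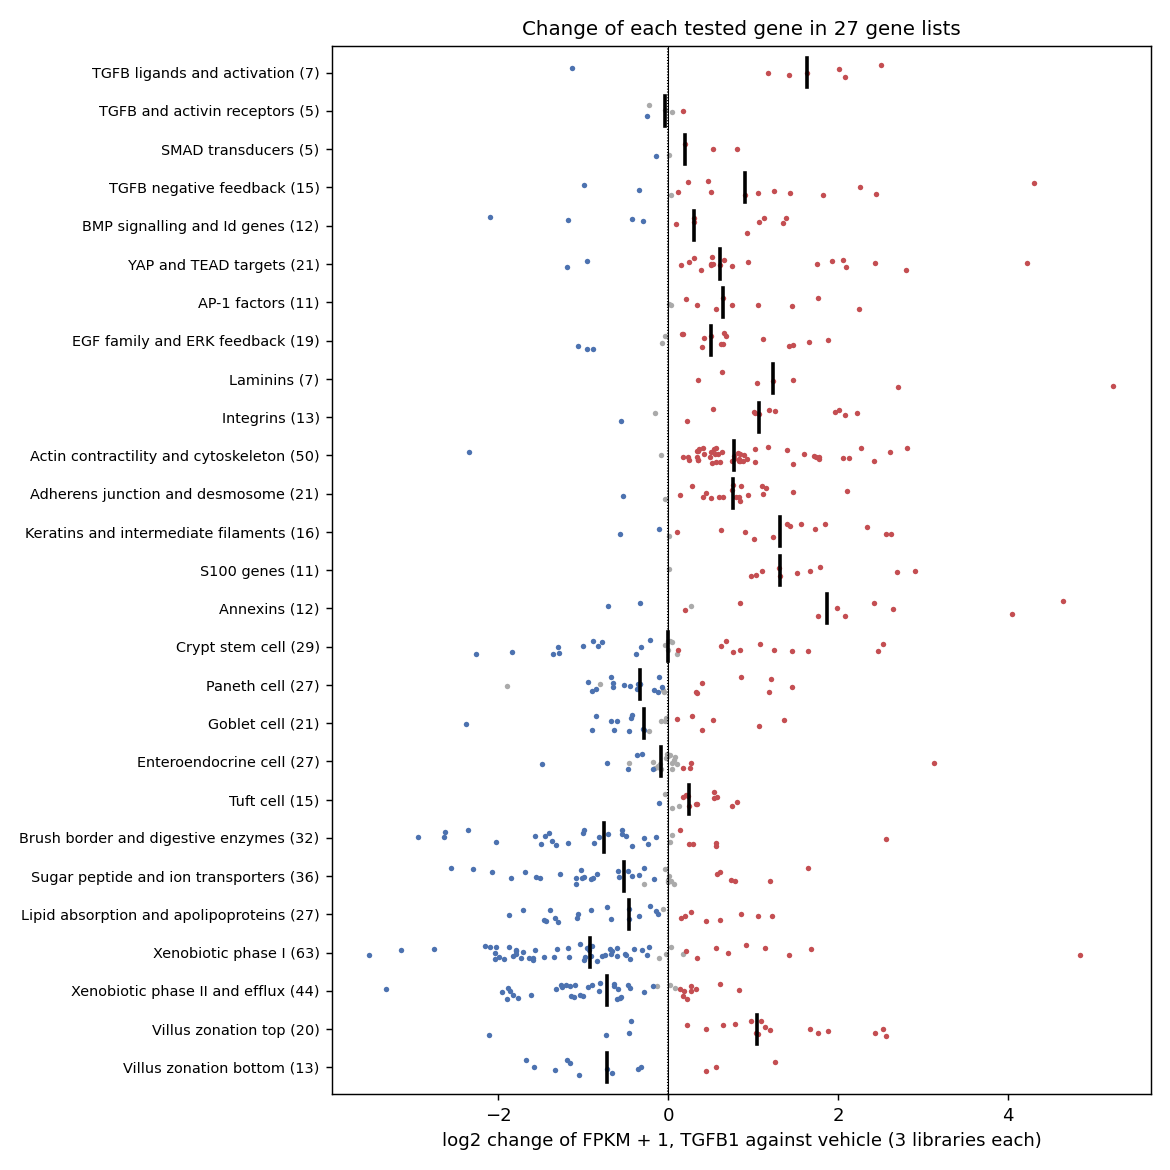
Log2 change of FPKM + 1 (horizontal axis, TGFB1 against vehicle, 3 libraries each) of each tested gene in 27 lists, 1 list per line with the number tested in parentheses. Red dots are genes called higher, blue dots called lower, grey dots not called, black bars list medians and the dotted line the median of all genes. Adhesion and cytoskeletal lists and the pathway lists other than the receptors have medians to the right of 0, and the receptor list lies near 0. Brush border, transporter, lipid, xenobiotic and villus base lists have medians to the left of 0, and the villus tip list to the right. The crypt stem cell list lies on both sides.

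Most tested genes that make TGFB available rose. Of 20 genes listed for ligands and their activation, 13 lay under 1 FPKM and were not tested. Of the 7 tested, 6 rose, each at least 2-fold, and 1 fell (median log2 change 1.63). Tgfb1 itself, the ligand added to the medium, stood at 8.97, 10.4 and 10.4 FPKM with vehicle and 27.1, 29.4 and 28.3 FPKM with TGFB1. The groups did not overlap (log2 change 1.42, SE 0.06, adjusted p = 6.29e-09). Thbs1 encodes thrombospondin 1, which frees TGFB from its latent complex. It was measured at 2.34, 2.12 and 2.12 FPKM with vehicle and 16.1, 16.8 and 18.2 FPKM with TGFB1, again without overlap (log2 change 2.50, SE 0.06, adjusted p = 9.76e-11). Itgav and Itgb6 form the epithelial integrin that pulls latent TGFB open. Itgav was at 7.94, 8.20 and 7.99 FPKM with vehicle and 34.4, 40.2 and 37.8 FPKM with TGFB1 (log2 change 2.09, SE 0.06, adjusted p = 1.86e-10). Itgb6 was at 8.58, 9.39 and 8.82 FPKM with vehicle and 36.4, 41.1 and 39.6 FPKM with TGFB1 (log2 change 2.01, SE 0.05, adjusted p = 1.84e-10). Both chains thus moved from near 8 or 9 FPKM to near 38 FPKM, with all TGFB1 libraries above all vehicle libraries. Ltbp4, a latent TGFB binding protein, went from 0.941 to 5.01 FPKM (log2 change 1.63) and passed the limit of 1 FPKM through its level with TGFB1. The exception was Gdf15, a distant family member induced by cell stress, which fell from 77.6 to 35.0 FPKM (log2 change −1.13, adjusted p = 8.18e-07). Tgfb2 was listed at no more than 0.0483 FPKM and was not tested.

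Receptors and most SMAD transducers moved little. Of 5 tested receptors of TGFB and activin 1 rose and 1 fell, neither 2-fold. Tgfbr1 was 11.9, 12.1 and 10.7 FPKM with vehicle and 11.4, 11.7 and 10.6 FPKM with TGFB1, and the groups overlapped (log2 change −0.04, SE 0.06, adjusted p = 0.54). Tgfbr2 rose from 49.2 to 55.4 FPKM (log2 change 0.17, adjusted p = 0.00163) and Acvr1b fell from 32.6 to 27.2 FPKM (−0.25, adjusted p = 0.000148). Among the transducers Smad3 stood apart. It was measured at 15.9, 15.6 and 15.9 FPKM with vehicle and 26.98, 30.5 and 27.5 FPKM with TGFB1 and did not overlap between groups (log2 change 0.80, SE 0.05, adjusted p = 1.21e-07). Smad2 rose from 10.0 to 11.7 FPKM (log2 change 0.20) and Smad5, of the BMP branch, from 7.01 to 10.6 FPKM (0.53), while Smad1 fell from 18.7 to 16.8 FPKM (−0.14, adjusted p = 0.0115). Smad4 went from 45.4 to 45.8 FPKM with overlapping groups (adjusted p = 0.805).

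The genes of negative feedback rose with them. Of 15 tested, 12 rose (7 at least 2-fold) and 2 fell, with a median log2 change of 0.90. Pmepa1 encodes a membrane protein that keeps receptor SMADs from the receptor. It was measured at 4.22, 3.85 and 4.59 FPKM with vehicle and 105, 104 and 98.2 FPKM with TGFB1. That is a 24.3-fold difference of the means with no overlap (log2 change 4.31, SE 0.05, adjusted p = 2.52e-12). Skil, the SMAD corepressor SnoN, was at 6.11, 6.71 and 6.44 FPKM with vehicle and 37.1, 40.7 and 40.6 FPKM with TGFB1 (log2 change 2.45, SE 0.05, adjusted p = 3.27e-11). Ldlrad4, another membrane inhibitor, rose from 1.75 to 8.74 FPKM (log2 change 1.82). Against this direction, the corepressor Tgif2 fell from 28.6 ± 0.657 to 13.8 ± 0.989 FPKM (mean ± SD, n = 3, log2 change −0.999, adjusted p = 3.16e-08), and so did Nedd4l, a ubiquitin ligase of SMADs, from 12.6 to 9.71 FPKM (−0.34).

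The bone morphogenetic protein (BMP) arm changed in both directions. Among 12 tested genes 8 rose and 4 fell (median 0.30). The ligand Bmp3 was at 5.79, 5.92 and 5.49 FPKM with vehicle and 0.485, 0.628 and 0.593 FPKM with TGFB1, the largest fall of the list (log2 change −2.10, SE 0.07, adjusted p = 1.29e-09). Bmp7 also fell, from 11.7 to 4.61 FPKM (log2 change −1.18), whereas Bmp8b rose from 17.3 to 46.9 FPKM (1.38). The type I receptor genes diverged: Acvr1 rose from 9.89 to 26.9 FPKM (1.36) and Bmpr1a fell from 71.3 to 52.7 FPKM (−0.43). The Id genes, HLH inhibitors that BMP is known to induce, did not move as a block. Id1 was at 36.1, 39.4 and 35.7 FPKM with vehicle and 77.8, 78.7 and 78.8 FPKM with TGFB1 (log2 change 1.06, SE 0.04, adjusted p = 3.09e-09). Id3 was at 15.8, 20.8 and 17.3 FPKM with vehicle and 13.6, 15.5 and 13.9 FPKM with TGFB1, a fall whose groups lay close together (log2 change −0.30, SE 0.09, adjusted p = 0.0157). Without TGFB1 replicate 1 or replicate 3 the call on Id3 was lost, with log2 changes of −0.26 and −0.28. Id2 changed by only 0.09 (from 73.7 to 78.5 FPKM, adjusted p = 0.0278). That call was lost in 5 alternatives, among them those without vehicle replicate 1 (log2 change 0.07, adjusted p = 0.106), vehicle replicate 2 (0.09, adjusted p = 0.0563) or TGFB1 replicate 2 (0.08, adjusted p = 0.0749).

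Textbook target genes of TGFB mostly rose. Of 15 tested, 12 rose and 2 fell (median 1.03). Ctgf, a matricellular protein, was at 9.78, 8.06 and 8.13 FPKM with vehicle and 172, 183 and 180.5 FPKM with TGFB1 (log2 change 4.22, SE 0.06, adjusted p = 1.05e-11). The groups were far apart. The kinase inhibitor Cdkn1a rose from 200.0 ± 7.50 to 411 ± 25.8 FPKM (mean ± SD, n = 3, log2 change 1.03), and Cdkn2b, another inhibitor that TGFB is known to induce, rose less, from 33.7 to 40.4 FPKM (0.25, adjusted p = 0.00242). Myc, which TGFB is known to repress in many epithelia, was at 64.1, 64.4 and 67.3 FPKM with vehicle and 95.4, 97.1 and 95.6 FPKM with TGFB1 here, so that it was higher in all TGFB1 libraries (log2 change 0.55, SE 0.03, adjusted p = 8.88e-08). Tgfbi, named for its induction by TGFB in other cells, was at 2.66, 2.85 and 2.30 FPKM with vehicle and 0.616, 0.451 and 0.765 FPKM with TGFB1. It fell with no overlap (log2 change −1.16, SE 0.10, adjusted p = 1.60e-06).

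**Figure D2:**
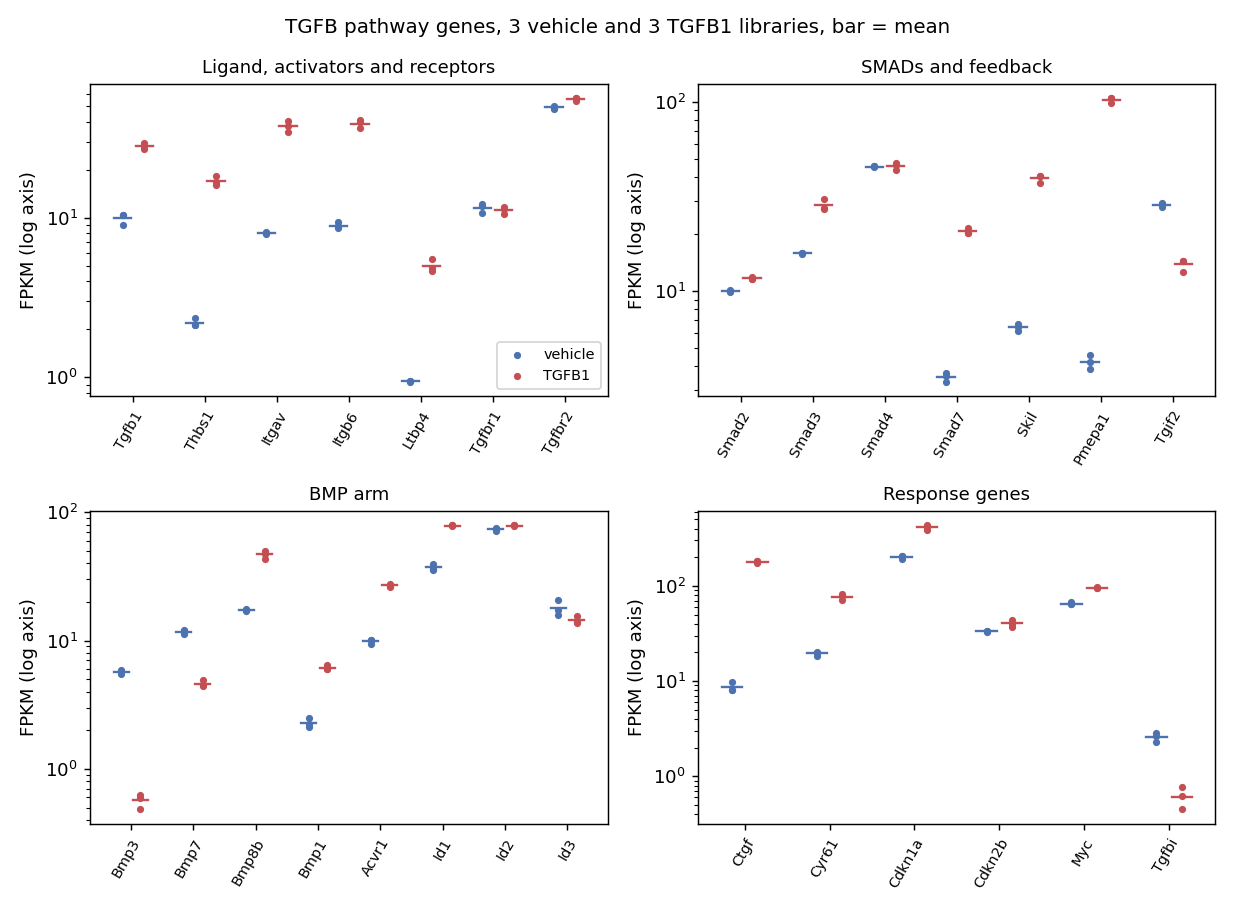
FPKM (log axis) of TGFB pathway genes in each library, blue for vehicle and red for TGFB1, 3 points per group with a bar at the mean. Ligand activators, Smad7, Skil and Pmepa1 separate widely, the receptors and Smad4 hardly, and Bmp3, Bmp7, Tgif2 and Tgfbi lie lower with TGFB1.

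Transcription factors of the AP-1 family, dimers of Fos and Jun proteins that respond to growth factor kinases and to stress, rose as a group. Of 11 tested, 9 rose, 4 of them at least 2-fold, and none fell (median log2 change 0.64). Fos was at 27.02, 25.2 and 25.8 FPKM with vehicle and 87.7, 93.7 and 90.2 FPKM with TGFB1 (log2 change 1.76, SE 0.04, adjusted p = 5.81e-11). Jun was at 29.3, 29.2 and 30.4 FPKM with vehicle and 81.0, 83.9 and 85.1 FPKM with TGFB1 (log2 change 1.46, SE 0.04, adjusted p = 1.00e-10). Fosl1, a late Fos member, was at 0.777, 0.845 and 0.699 FPKM with vehicle and 7.52, 7.78 and 6.95 FPKM with TGFB1, under 1 FPKM in every vehicle library (log2 change 2.25, SE 0.07, adjusted p = 6.51e-10). All 3 were higher in every TGFB1 library.

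Target genes of YAP and TEAD are the transcriptional output of the Hippo pathway, which senses crowding and tension. They rose in 19 of 21 tested cases (7 at least 2-fold, median 0.61). The largest rise of this list was Ctgf (4.22), which is also counted among the textbook TGFB targets above. These lists are therefore not separate evidence. F3, tissue factor, the starter of coagulation, was at 88.5, 89.6 and 90.9 FPKM with vehicle and 599, 674 and 625 FPKM with TGFB1 (log2 change 2.80, SE 0.04, adjusted p = 4.65e-12). Nt5e, an ectoenzyme that makes adenosine, went from 0.507 to 7.15 FPKM (log2 change 2.43). Ankrd1 rose little, from 2.78 ± 0.734 to 4.39 ± 0.800 FPKM (mean ± SD, n = 3, 0.52, adjusted p = 0.0122). The members that fell were Birc5, survivin, which is also a mitosis gene (from 87.8 to 37.8 FPKM, −1.20), and Ereg, a ligand of the EGF receptor (from 3.05 to 1.08 FPKM, −0.96). Within the pathway itself, Yap1 changed by 0.25 (from 37.6 to 44.9 FPKM), while the DNA-binding partner Tead4 was at 1.38, 1.17 and 1.24 FPKM with vehicle and 7.01, 9.08 and 10.1 FPKM with TGFB1. Tead4 was the sole member of the 16 Hippo genes tested that rose at least 2-fold (log2 change 2.09, SE 0.11, adjusted p = 4.11e-08).

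The promoters of F3, of Cldn4 (a tight junction claudin) and of Sprr1a (a small proline-rich envelope protein) are shown as examples of windows with AP-1 elements among genes that rose, and they were chosen after their matches were seen. The windows run from 250 bases before to 50 bases after the start annotated by RefSeq on GRCm38.p6, 5′ to 3′ on the strand of the gene. The genome build behind these FPKM values was not given in the sources used here, so the sequences are context and no measurement. Capitals mark matches on either strand to TGANTCA (the AP-1 element) and to CAGAC (the SMAD box, GTCTG on the other strand).
F3, chr3:121723287-121723586, plus strand: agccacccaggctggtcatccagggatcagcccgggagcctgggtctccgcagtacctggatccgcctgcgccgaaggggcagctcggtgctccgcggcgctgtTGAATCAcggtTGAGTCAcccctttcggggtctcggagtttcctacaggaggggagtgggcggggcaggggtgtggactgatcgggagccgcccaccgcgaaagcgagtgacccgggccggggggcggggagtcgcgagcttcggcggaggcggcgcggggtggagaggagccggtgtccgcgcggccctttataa
Cldn4, chr5:134946885-134947184, minus strand: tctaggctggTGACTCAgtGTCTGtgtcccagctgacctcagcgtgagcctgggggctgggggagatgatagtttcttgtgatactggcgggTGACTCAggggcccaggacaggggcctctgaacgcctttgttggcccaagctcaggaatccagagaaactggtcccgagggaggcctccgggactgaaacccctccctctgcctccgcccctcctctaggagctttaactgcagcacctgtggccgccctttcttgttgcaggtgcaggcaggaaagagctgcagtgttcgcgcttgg
Sprr1a, chr3:92485832-92486131, minus strand: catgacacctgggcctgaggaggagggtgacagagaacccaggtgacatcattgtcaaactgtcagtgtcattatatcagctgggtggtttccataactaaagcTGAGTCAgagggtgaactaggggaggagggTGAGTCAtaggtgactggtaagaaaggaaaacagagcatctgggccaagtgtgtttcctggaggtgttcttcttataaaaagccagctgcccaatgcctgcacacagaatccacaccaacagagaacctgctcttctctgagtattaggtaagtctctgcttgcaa
Each window holds 2 AP-1 matches, and that of Cldn4 also holds 1 SMAD box. Among 151 named genes with 1 window and a change of at least 2-fold, 7 had 2 or more AP-1 matches, the genes shown among them. Of the 7, 6 were higher and 1 lower with TGFB1, where all 2-fold calls were 625 higher and 331 lower. How the 151 genes divide by direction, and the share of all tested genes with 2 or more matches, were not counted. No link to direction is read from these 7 genes. RefSeq windows were matched by symbol for 8607 of the 11330 genes. TGANTCA occurred in 5.30% of the 10989 windows of tested genes, in 10.6% of the 604 windows of genes at least 2-fold higher and in 6.45% of the 310 windows of genes at least 2-fold lower. CAGAC, a short motif, occurred in 46.9%, 56.3% and 50.0% of the same windows. For comparison, 7.81% of all 32851 RefSeq windows held TGANTCA and 49.6% held CAGAC. A match describes letters in a window and does not show binding.

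In Cldn4, the gene of the second window, expression was 247, 251 and 262 FPKM with vehicle and 1074, 1182 and 1173 FPKM with TGFB1 (log2 change 2.17, SE 0.04, adjusted p = 1.95e-11). Sprr1a was at 84.5, 87.3 and 88.0 FPKM with vehicle and 624, 703 and 605 FPKM with TGFB1 (log2 change 2.88, SE 0.05, adjusted p = 1.95e-11).

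Genes of EGF receptor signalling mostly rose. Of 19 tested genes 14 rose and 3 fell (median 0.50). The receptor gene Egfr was at 10.3, 9.77 and 10.4 FPKM with vehicle and 38.3, 43.0 and 39.3 FPKM with TGFB1 (log2 change 1.88, SE 0.05, adjusted p = 1.89e-10). Its feedback inhibitor Errfi1 rose from 30.8 to 99.1 FPKM (1.65), the phosphatase Dusp1 from 15.2 to 43.8 FPKM (1.47) and the ligand Hbegf from 15.8 to 43.8 FPKM (1.42). Areg, another ligand, rose from 233 to 329.7 FPKM (0.50). Lrig1, a brake on the receptor, went the other way and fell from 76.9 to 41.0 FPKM (−0.89), as did its relative Lrig3, from 12.2 to 5.32 FPKM (−1.06).

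Wnt and Notch genes changed in both directions, more of them upward. Of 21 Wnt pathway genes 11 rose and 5 fell, and of 17 Notch genes 10 rose and 5 fell (medians 0.13 and 0.18). Axin2, the standard readout of Wnt signalling, was 27.3, 24.9 and 27.3 FPKM with vehicle and 28.8, 27.9 and 28.9 FPKM with TGFB1 and did not pass (adjusted p = 0.058). Hes1, the standard readout of Notch, was 105, 100.3 and 102 FPKM with vehicle and 110.3, 105 and 109 FPKM with TGFB1 and did not pass either (adjusted p = 0.0524). Both passed with median-ratio scaling (adjusted p = 0.0440 and 0.0335), and Hes1 also without vehicle replicate 1 (log2 change 0.10, adjusted p = 0.0430) or TGFB1 replicate 2 (0.10, adjusted p = 0.0390). Ctnnb1, the gene of beta-catenin, which serves both Wnt signalling and cell adhesion, was at 366, 362 and 363 FPKM with vehicle and 799.7, 825 and 809.7 FPKM with TGFB1 (log2 change 1.16, SE 0.03, adjusted p = 6.83e-11). Among receptors, Fzd2 rose from 4.42 to 10.4 FPKM while Fzd5 fell from 22.1 to 13.1 FPKM. Jag1 and Jag2 rose (0.71 and 0.53) while the other Notch ligand gene named, Dll1, fell (−0.63). Ephb2 and Ephb3, receptors that keep crypt cells in place, both rose: Ephb3 was at 8.76, 8.66 and 8.39 FPKM with vehicle and 27.6, 29.8 and 30.1 FPKM with TGFB1 (log2 change 1.65, SE 0.05, adjusted p = 2.84e-10), and Ephb2 went from 29.5 to 50.5 FPKM (0.76). With genes under 5 FPKM left out, fewer genes were tested and 7 Wnt and 6 Notch genes were higher.

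Retinoid handling, which turns vitamin A into retinoic acid, changed in both directions. Of 21 genes 7 rose (5 at least 2-fold) and 12 fell (7 at least 2-fold), and among genes of at least 5 FPKM 4 rose. Rdh10, which makes retinal, was at 35.2, 34.5 and 36.7 FPKM with vehicle and 198, 203 and 200.0 FPKM with TGFB1 (log2 change 2.46, SE 0.03, adjusted p = 3.41e-12). Aldh1a3, which makes retinoic acid, was at 0.338, 0.2502 and 0.636 FPKM with vehicle and 38.1, 41.6 and 38.7 FPKM with TGFB1 (log2 change 4.85, SE 0.09, adjusted p = 2.56e-11). Aldh1a1, another enzyme for that step, moved the opposite way at 14.3, 14.4 and 14.0 FPKM with vehicle and 2.76, 2.65 and 3.58 FPKM with TGFB1 (log2 change −1.94, SE 0.08, adjusted p = 6.03e-09). The retinol carrier Rbp7 fell from 3.20 to 0.116 FPKM (−1.91).

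Genes by which epithelial cells hold the basement membrane rose. All 7 tested laminin chains rose, 5 at least 2-fold (median 1.23), and so did 11 of 13 integrin chains (9 at least 2-fold, median 1.07). Lama3 and Lamb3 encode chains of the laminin that anchors epithelia to their basement membrane. Lamb3 was at 48.7, 45.2 and 46.3 FPKM with vehicle and 122, 138 and 134 FPKM with TGFB1 (log2 change 1.47, SE 0.05, adjusted p = 9.63e-10). Lama3 started from a level near 0 and went from 0.555 to 57.9 FPKM. With vehicle the Lamb3 level was thus far above that of Lama3, and with TGFB1 the levels of both chains lay within a few fold of each other. The laminin and collagen receptors Itga6 (from 48.3 to 103 FPKM, 1.07) and Itga2 (from 10.8 to 54.2 FPKM, 2.23) rose beside them. Itgam, an integrin chain of myeloid cells, fell from 1.68 to 0.815 FPKM (−0.56).

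Matrix proteases and their inhibitors mostly rose. Of 19 tested proteases and inhibitors 15 rose, 10 at least 2-fold (median 1.08). Plaur, the urokinase receptor, was at 31.4, 31.4 and 30.3 FPKM with vehicle and 129.5, 134 and 129 FPKM with TGFB1 (log2 change 2.04, SE 0.03, adjusted p = 8.01e-12). Plau, urokinase, rose from 0.384 to 6.19 FPKM (2.37). Serpinb5, maspin, rose from 9.48 to 81.8 FPKM (2.98) and the metalloprotease Adam8 from 3.09 to 22.2 FPKM (2.50), while Adamts15 fell from 7.23 to 2.02 FPKM (−1.45). Fn1, fibronectin, was under the limit of the tests at 0.0309, 0.0589 and 0.0227 FPKM with vehicle and 0.807, 1.07 and 1.33 FPKM with TGFB1.

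Genes of epithelial junctions mostly rose. Of 21 genes of adherens junctions and desmosomes 19 rose and 1 fell (median 0.76). Cdh1, E-cadherin, was at 292, 307 and 300.5 FPKM with vehicle and 491, 522 and 514 FPKM with TGFB1 (log2 change 0.76, SE 0.03, adjusted p = 6.89e-09). Pkp1, a desmosomal plaque protein of stratified epithelia, rose from 9.29 to 43.1 FPKM (2.10). Of 22 claudin and tight junction genes 14 rose and 5 fell (median 0.20). Beside the rise of Cldn4, Cldn15, which forms the cation channel of the small intestine, was at 277, 270.2 and 279 FPKM with vehicle and 87.0, 87.3 and 93.8 FPKM with TGFB1 (log2 change −1.61, SE 0.04, adjusted p = 4.99e-11). Cldn2, another cation channel claudin, fell from 204 to 142 FPKM (−0.51).

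In the list of epithelial-mesenchymal transition and mesenchymal genes 8 rose (5 at least 2-fold) and 2 fell of 13 tested, with 3 higher among genes of at least 5 FPKM. Several of its transcription factors were under the limit of the tests. Snai1 was listed at no more than 0.0382 FPKM, Snai2 at no more than 0.0342, Zeb1 at no more than 0.0159 and Zeb2 at no more than 0.00714 FPKM. Vim, vimentin, was 4.23, 4.69 and 4.83 FPKM with vehicle and 4.42, 4.70 and 4.74 FPKM with TGFB1, with overlapping groups (log2 change 0.01, SE 0.06, adjusted p = 0.898). Cd44, a hyaluronan receptor that this list shares with crypt stem cells, was at 19.1, 18.2 and 18.7 FPKM with vehicle and 108, 116 and 113 FPKM with TGFB1 (log2 change 2.52, SE 0.04, adjusted p = 5.11e-12). Sox4 rose from 39.0 to 121 FPKM (1.61) and Snai3 from 1.80 to 5.66 FPKM (1.26), while Hmga2 fell from 17.2 to 9.73 FPKM (−0.77).

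The listed cytoskeletal genes rose nearly throughout. Of 50 tested genes in the list of actin contractility and cytoskeleton 48 rose, 16 at least 2-fold, and 1 fell (median 0.77). The small GTPase gene Rhob was at 34.7, 32.0 and 34.0 FPKM with vehicle and 233, 246 and 245 FPKM with TGFB1 (log2 change 2.81, SE 0.04, adjusted p = 3.41e-12). Tuba1a (from 2.70 to 21.6 FPKM, 2.62) and Tubb6 (from 3.47 to 20.6 FPKM, 2.27) rose among the tubulins. Of 11 tubulins picked by symbol, which do not match the list gene for gene, 8 rose and 2 fell. The single fall within the list was Myl9, a regulatory myosin light chain, at 65.9, 71.0 and 66.5 FPKM with vehicle and 14.4, 12.3 and 11.0 FPKM with TGFB1 (log2 change −2.35, SE 0.08, adjusted p = 8.44e-09). The smooth muscle genes Actg2 (no more than 0.0225 FPKM) and Tagln (no more than 0.892 FPKM) were not tested.

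Keratins, S100 genes and annexins, gene families that are high in injured and in stratified epithelia, rose. The counts were 13 of 16 for keratins and filament genes (median 1.32), 10 of 11 for S100 genes (median 1.31) and 9 of 12 for annexins (median 1.87). Krt7, a keratin of ducts and stomach, was at 257, 265 and 269 FPKM with vehicle and 1289.9, 1381 and 1335 FPKM with TGFB1 (log2 change 2.34, SE 0.03, adjusted p = 3.56e-12). S100a6 was at 186, 168 and 175 FPKM with vehicle and 1311, 1390.1 and 1285 FPKM with TGFB1 (log2 change 2.90, SE 0.04, adjusted p = 4.96e-12). Sfn, the cell cycle inhibitor 14-3-3 sigma of stratified epithelia, rose from 37.2 to 235 FPKM (2.63). Anxa8 (from 1.92 to 71.5 FPKM) and Anxa10 (from 24.8 to 160.5 FPKM) rose among the annexins, while the enterocyte members Anxa13 (from 217 to 133 FPKM, −0.71) and Anxa4 (from 1042 to 826 FPKM, −0.33) fell. Of 9 small proline-rich and envelope genes 8 rose, Sprr2f from 2.80 to 56.7 FPKM (3.94), and 5 rose among those of at least 5 FPKM.

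Enterocytes, the absorptive cells, digest at a brush border and carry sugars, peptides and lipids. Their digestive genes fell: of 32 brush border and enzyme genes 24 fell (13 at least 2-fold) and 6 rose (median −0.76). Sis, sucrase-isomaltase, was at 136, 156 and 139 FPKM with vehicle and 20.6, 25.3 and 21.2 FPKM with TGFB1 (log2 change −2.63, SE 0.08, adjusted p = 8.36e-09). Alpi, the alkaline phosphatase, fell less, from 411 ± 25.9 to 291 ± 8.42 FPKM (mean ± SD, n = 3, −0.50). Among the genes that rose were parts of the microvillus itself: the actin bundler Vil1 was at 195, 199.6 and 193 FPKM with vehicle and 288, 296 and 287 FPKM with TGFB1 (log2 change 0.57, SE 0.03, adjusted p = 2.80e-08), Cdhr2 of the tip links rose from 96.6 to 143 FPKM (0.56) and Eps8 from 63.7 to 78.0 FPKM (0.29). These 3 genes of the microvillus frame thus moved opposite to most of the enzymes in the same libraries. They were taken from the 6 that rose, and Clic5, a protein of the microvillus base given below, fell. The 1 gene of this list that rose at least 2-fold was the keratin Krt20 (2.56), which is also in the villus tip list.

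Transport fell in the same way. Of 36 sugar, peptide and ion transporters 23 fell (12 at least 2-fold) and 6 rose (median −0.52). Slc5a1, the apical sodium-glucose carrier, was at 210.4, 221 and 207 FPKM with vehicle and 40.4, 46.0 and 41.1 FPKM with TGFB1 (log2 change −2.30, SE 0.05, adjusted p = 4.90e-11). Slc2a2, the basolateral glucose carrier GLUT2, was at 24.3, 25.3 and 23.8 FPKM with vehicle and 3.05, 3.54 and 3.35 FPKM with TGFB1 (log2 change −2.56, SE 0.06, adjusted p = 4.05e-11). Slc2a5, the fructose carrier, fell from 13.3 to 2.39 FPKM (−2.08). Slc2a1, the GLUT1 carrier that most dividing cells use, was at 119, 121 and 121 FPKM with vehicle and 199, 217 and 210.2 FPKM with TGFB1, higher with TGFB1 without overlap (log2 change 0.79, SE 0.04, adjusted p = 1.02e-08). Slc34a2, a phosphate carrier, was listed at no more than 0.0145 FPKM with vehicle and at 2.02 to 2.24 FPKM with TGFB1.

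Genes of lipid handling mostly fell. Of 27 tested 18 fell and 8 rose (median −0.46). Npc1l1, the cholesterol importer, was at 48.2, 53.2 and 52.4 FPKM with vehicle and 17.7, 18.9 and 18.3 FPKM with TGFB1 (log2 change −1.44, SE 0.05, adjusted p = 7.00e-10). The sterol exporters Abcg5 (from 39.5 to 11.4 FPKM, −1.71) and Abcg8 (from 16.2 to 5.25 FPKM, −1.46) and the fatty acid binding protein Fabp2 (from 47.5 to 12.2 FPKM, −1.88) fell as well. Apolipoproteins diverged: Apoa1 fell from 538 to 338 FPKM (−0.67), while Apoa4 rose from 160.1 to 218 FPKM (0.44) and Apob from 43.8 to 80.4 FPKM (0.86). The lipid droplet coat Plin2 rose from 45.4 to 107 FPKM (1.22).

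Genes of drug and steroid metabolism fell broadly and far. In phase I 50 of 63 genes fell, 27 at least 2-fold (median −0.92), and in phase II and efflux 32 of 44, 18 at least 2-fold (median −0.73). By family, 9 of 10 carboxylesterases fell (median −1.68), 8 of 9 UDP-glucuronosyltransferases (median −1.62), 22 of 28 cytochromes P450 (median −0.92) and 16 of 19 glutathione S-transferases (median −0.64). Cyp2c55 was at 56.9, 62.1 and 56.5 FPKM with vehicle and 12.9, 12.0 and 12.0 FPKM with TGFB1 (log2 change −2.16, SE 0.05, adjusted p = 5.67e-11). Gstm1 fell from 303 to 76.9 FPKM (−1.96) and Ugt2b35 from 85.1 to 22.1 FPKM (−1.90), while Gstk1 rose from 19.7 to 36.1 FPKM (0.84). Members of these families share sequence, and how reads were divided between near copies was not given in the sources used here. 

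Genes of the villus tip went against the enterocyte lists. Along the villus, enterocytes pass from a lower state with antimicrobial genes to a tip state with adhesion, purine and lipoprotein genes. Of 20 tip genes 16 rose (11 at least 2-fold, median 1.05), and of 13 villus base genes 10 fell (median −0.72). Krt20, a keratin of mature enterocytes, was at 67.5, 78.8 and 76.8 FPKM with vehicle and 449.6, 454 and 424 FPKM with TGFB1 (log2 change 2.56, SE 0.06, adjusted p = 1.00e-10). Pmp22 (from 0.243 to 6.20 FPKM, 2.53) and the tip genes Nt5e and Egfr already described rose as well. The exceptions at the tip were Ccl25, a chemokine for gut-homing lymphocytes, at 195, 197 and 203 FPKM with vehicle and 47.7, 45.6 and 42.1 FPKM with TGFB1 (log2 change −2.11, SE 0.04, adjusted p = 3.34e-11), Klf4 (from 19.9 to 11.6 FPKM, −0.74), Neat1 (−0.46) and Enpp3 (−0.44). At the base, Pigr, which carries IgA across the epithelium, was at 705, 701 and 699 FPKM with vehicle and 276, 279 and 279 FPKM with TGFB1 (log2 change −1.33, SE 0.03, adjusted p = 2.21e-11). Reg3g (from 149 to 64.7 FPKM, −1.19) and Reg1 (from 61.8 to 19.9 FPKM, −1.58) fell, while Reg4 rose from 278 to 380.2 FPKM (0.45). The tip list shares Nt5e with the YAP list, Fos with the AP-1 list and Egfr with the EGF list. It also shares Krt20 with the brush border list, so these lists are not separate evidence.

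**Figure D3:**
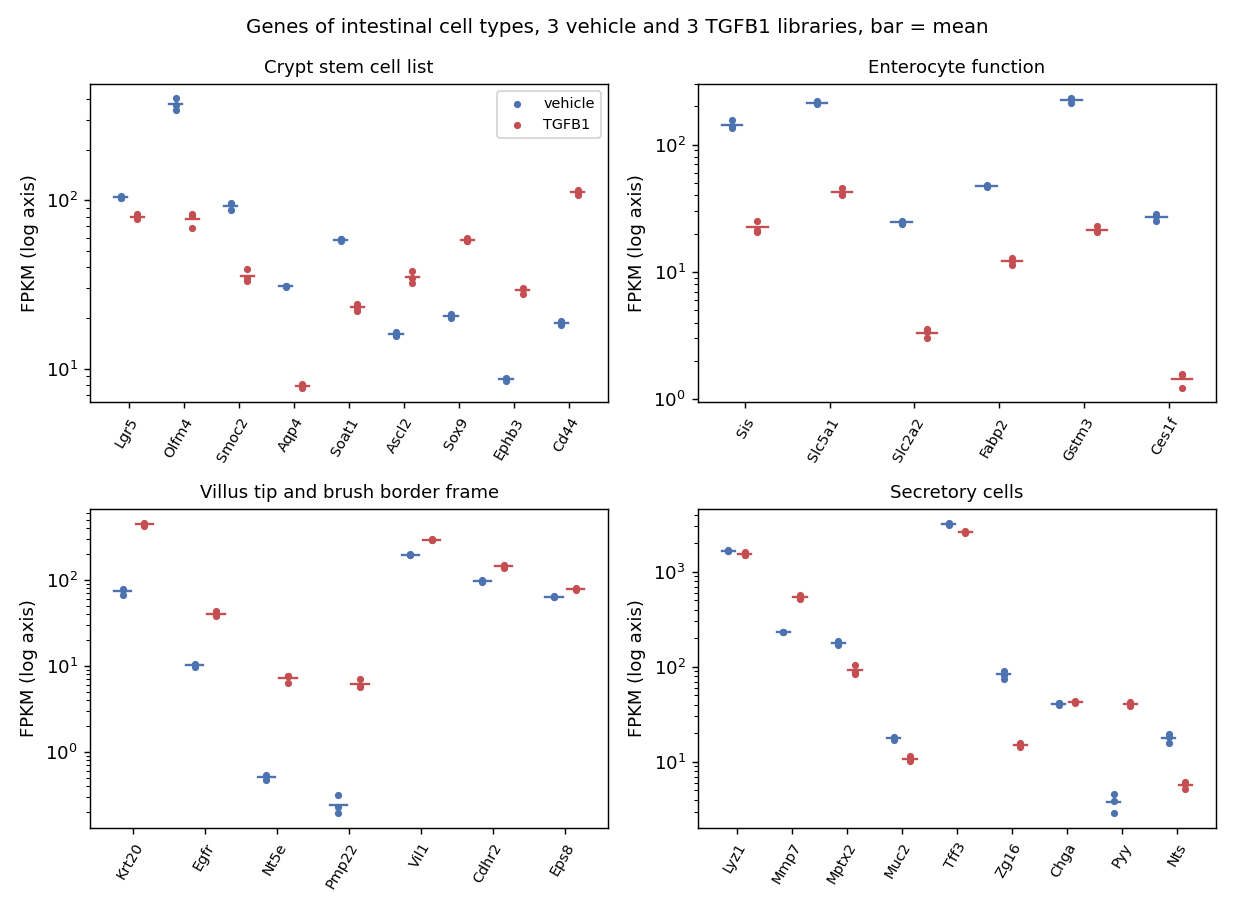
FPKM (log axis) of genes of intestinal cell types in each library, blue for vehicle and red for TGFB1, 3 points per group with a bar at the mean. The stem cell panel holds genes that fell on the left and genes that rose on the right. The enterocyte genes shown lie lower with TGFB1, and the tip and microvillus genes shown lie higher. The genes shown were picked from longer lists, in which other members moved the opposite way.

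Crypt stem cell genes, which mark the dividing cells at the crypt base, changed in both directions. Of 29 genes 11 rose (37.9%) and 12 fell (41.4%), near the shares over all genes, with a median of 0.00. At least 2-fold were 6 rises and 6 falls, 20.7% each, against 5.52% and 2.92% over all genes. Smoc2 was at 97.0, 87.0 and 94.5 FPKM with vehicle and 38.9, 33.2 and 34.7 FPKM with TGFB1 (log2 change −1.36, SE 0.06, adjusted p = 1.40e-08). Olfm4 (−2.26), Aqp4 (from 30.8 to 7.85 FPKM, −1.84) and Soat1 (from 58.2 to 23.1 FPKM, −1.30) fell at least 2-fold. Lgr5, the R-spondin receptor that marks the cells, fell less (−0.38). Ascl2, the stem cell transcription factor, was at 16.6, 15.8 and 15.7 FPKM with vehicle and 38.1, 32.2 and 34.4 FPKM with TGFB1. It rose with no overlap (log2 change 1.07, SE 0.06, adjusted p = 4.15e-08). Sox9 was at 20.4, 19.9 and 21.0 FPKM with vehicle and 57.0, 59.6 and 57.1 FPKM with TGFB1 (log2 change 1.46, SE 0.04, adjusted p = 1.58e-10). Fstl1 (from 0.131 to 5.29 FPKM, 2.47) rose too, beside Cd44 and Ephb3. Among genes of reserve stem cells, Mex3a rose from 2.29 to 5.35 FPKM (0.95), while Tert (−0.54), Bmi1 (−0.35) and Hopx (−0.20) fell.

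More secretory cell genes fell than rose, while changes of at least 2-fold were mostly rises. Of 27 Paneth genes 15 fell, none 2-fold, and 7 rose, 3 at least 2-fold (median −0.33). The antimicrobial Mptx2 fell from 177 to 91.5 FPKM (−0.95), whereas Mmp7, the protease that activates defensins, was at 231, 230.1 and 234 FPKM with vehicle and 566, 534 and 516 FPKM with TGFB1 (log2 change 1.21, SE 0.04, adjusted p = 4.09e-10). Defa24, a defensin with very high FPKM, changed by −0.16 (from 5949.6 to 5316 FPKM) and was not called after quantile normalization. All defensin genes share sequence, so their separate values are uncertain. Of 21 goblet genes 11 fell (1 at least 2-fold) and 6 rose (2 at least 2-fold, median −0.29). Zg16, a lectin of the mucus, was at 91.1, 82.8 and 75.2 FPKM with vehicle and 15.6, 14.2 and 15.5 FPKM with TGFB1, the one goblet gene that fell at least 2-fold (log2 change −2.38, SE 0.07, adjusted p = 4.85e-10). Muc2, the mucin, fell from 17.8 to 10.8 FPKM (−0.68), Tff3 from 3179 to 2605 FPKM (−0.29), and Atoh1, the secretory lineage factor, from 8.74 to 6.20 FPKM (−0.44). Foxa1 rose from 29.2 to 76.5 FPKM (1.36).

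Most genes of hormone cells did not pass the test. Of 27 enteroendocrine genes 17 were not called, 4 rose and 6 fell. Chga, the granule protein of most hormone cells, was 39.5, 41.3 and 41.7 FPKM with vehicle and 41.8, 44.1 and 42.3 FPKM with TGFB1 (adjusted p = 0.156). Single hormone genes did change: Pyy, peptide YY, was at 3.89, 2.88 and 4.62 FPKM with vehicle and 40.3, 42.9 and 38.3 FPKM with TGFB1 (log2 change 3.13, SE 0.12, adjusted p = 1.27e-07). Nts, neurotensin, was at 15.8, 19.4 and 18.1 FPKM with vehicle and 5.12, 5.79 and 6.16 FPKM with TGFB1 (log2 change −1.49, SE 0.08, adjusted p = 4.50e-08). Neurog3, the factor of hormone cell precursors, fell from 5.96 to 3.25 FPKM (−0.73, adjusted p = 0.000712). Tuft cell genes were low. Of 15 tested 11 rose, none 2-fold, among them the cation channel Trpm5 (from 1.39 to 2.57 FPKM, 0.58). The lineage factor Pou2f3 was 1.68, 1.63 and 1.62 FPKM with vehicle and 1.56, 1.69 and 1.505 FPKM with TGFB1, with overlap (adjusted p = 0.703). The tuft count fell to 6 without vehicle replicate 2, to 7 without TGFB1 replicate 3 and to 1 where genes under 5 FPKM were left out.

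Factors of intestinal identity moved both ways, 19 up and 18 down of 39. Cdx2 was at 142, 141 and 149 FPKM with vehicle and 89.99, 88.2 and 93.5 FPKM with TGFB1 (log2 change −0.66, SE 0.04, adjusted p = 4.15e-08). Hnf4g, an enterocyte factor, was at 35.1, 36.1 and 37.3 FPKM with vehicle and 13.1, 15.4 and 15.3 FPKM with TGFB1 (log2 change −1.26, SE 0.06, adjusted p = 1.64e-08), whereas its relative Hnf4a fell less (from 267 to 219.6 FPKM, −0.28). Among nuclear receptors of the list, the vitamin D receptor gene Vdr was at 85.8, 85.3 and 81.4 FPKM with vehicle and 23.3, 24.1 and 23.5 FPKM with TGFB1 (log2 change −1.79, SE 0.04, adjusted p = 2.61e-11), and Nr1i3 fell from 11.1 to 3.17 FPKM (−1.54). Over the whole list, the largest rises were Elk3 (from 0.696 to 11.4 FPKM), Runx1 (from 2.69 to 12.7 FPKM) and Klf6 (from 42.6 to 137 FPKM). These are not nuclear receptors and are not particular to the intestine. Elk3 passed the limit of the tests through its level with TGFB1. Of 40 genes listed for stomach and pancreas, 25 were under the limit of the tests. Gkn1, Tff1, Prss1 and Ptf1a among them were listed at 0 in all 6 libraries. Of the 15 tested 8 rose, 7 at least 2-fold, and 4 fell. Prss22, a serine protease, rose from 0.430 to 10.7 FPKM (3.03) and passed the limit through its level with TGFB1. Sycn, a zymogen granule protein, fell from 31.8 to 15.1 FPKM (−1.02).

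Mitosis genes fell nearly without exception. Of 53 mitosis genes 52 fell, 16 at least 2-fold, and none rose (median −0.93). Ccnb2, a mitotic cyclin, was at 79.3, 79.1 and 77.2 FPKM with vehicle and 28.6, 27.1 and 30.5 FPKM with TGFB1 (log2 change −1.42, SE 0.04, adjusted p = 5.18e-10). Cdk1, its kinase, fell from 52.1 ± 1.86 to 29.6 ± 1.08 FPKM (mean ± SD, n = 3, −0.80). Replication genes fell more weakly: 44 of 57 fell, 3 at least 2-fold, and 3 rose (median −0.35). E2f8, E2f2 and Tk1 were those that fell at least 2-fold (−1.25, −1.24 and −1.08). The replication clamp Pcna was at 130.2, 141 and 138 FPKM with vehicle and 186, 190.4 and 181 FPKM with TGFB1, one of the 3 that rose (log2 change 0.44, SE 0.04, adjusted p = 1.55e-06), with Cdc6 (0.26) and Cdk2 (0.14). Without vehicle replicate 1 the call on Cdk2 was lost (log2 change 0.12, adjusted p = 0.054). Ccne1, the cyclin of S phase entry, went from 8.46 to 8.15 FPKM with overlapping groups (adjusted p = 0.506). DNA repair genes fell in 31 of 43 cases (median −0.35), or 18 among genes of at least 5 FPKM, Fancd2 from 5.88 to 2.72 FPKM (−0.89), while Xrcc5 rose from 7.65 to 14.6 FPKM (0.85).

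Of 22 cyclin, Myc and CDK inhibitor genes 9 rose and 9 fell, both near the shares over all genes. Ccnd1, cyclin D1, was at 74.4, 71.0 and 73.1 FPKM with vehicle and 123, 124 and 127 FPKM with TGFB1 (log2 change 0.77, SE 0.03, adjusted p = 5.99e-09). Mycn was at 1.39, 0.924 and 1.32 FPKM with vehicle and 9.84, 9.30 and 9.41 FPKM with TGFB1 (log2 change 2.26, SE 0.09, adjusted p = 2.42e-09). Rb1, the restriction point gene, fell from 34.9 to 18.3 FPKM (−0.89) and so did the inhibitors Cdkn2c (from 10.6 to 4.97 FPKM, −0.98) and Cdkn2d (from 2.59 to 1.18 FPKM, −0.72). Cdkn1b went from 53.8 to 51.6 FPKM (adjusted p = 0.299). Targets of p53 were mixed, 12 up and 10 down of 25: Plk2 rose from 7.16 to 32.1 FPKM (2.03), and Sesn1 (−0.80) and Ccng1 (−0.67) fell. In the cell death list 18 of 26 genes rose. The BH3-only genes Bmf (from 1.77 to 11.9 FPKM, 2.22) and Bcl2l11 (from 5.34 to 15.9 FPKM, 1.41), which promote death, rose beside the survival gene Bcl2l1 (from 25.8 to 59.8 FPKM, 1.18). Gsdmd, which forms membrane pores, was at 81.1, 83.1 and 84.5 FPKM with vehicle and 190.0, 186 and 191 FPKM with TGFB1 (log2 change 1.18, SE 0.03, adjusted p = 1.58e-10).

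Nuclear genes of the respiratory chain fell by a small and even amount. Of 75 genes 70 fell, none rose and none fell 2-fold (median −0.37, range −0.87 to −0.02). Families picked by symbol, which do not match that list gene for gene, fell in every complex. The counts were 33 of 35 genes of complex I, 4 of 4 of complex II, 7 of 8 of complex III, 11 of 13 of complex IV and 15 of 16 of the ATP synthase. Cox6b2, in the complex IV family but outside the list of 75, changed by −1.06 and is named after its value was seen. Sdhb, of complex II, was at 288, 300.2 and 289 FPKM with vehicle and 169.5, 155 and 155 FPKM with TGFB1 (log2 change −0.87, SE 0.04, adjusted p = 1.07e-08). Of 24 genes of the citric acid cycle 22 fell (median −0.46), Mdh2, a dehydrogenase of the cycle, from 895 ± 13.1 to 548 ± 7.69 FPKM (mean ± SD, n = 3, −0.71). Ppargc1a, the coactivator of mitochondrial genes, was at 9.42, 10.2 and 9.92 FPKM with vehicle and 2.17, 2.51 and 2.84 FPKM with TGFB1 (log2 change −1.63, SE 0.07, adjusted p = 1.05e-08). The mitochondrial ribosome followed with 50 of 76 genes lower (median −0.20). No mitochondrially encoded genes were among those analysed here.

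Cytosolic ribosomal protein genes fell by less. Of 77 genes 38 fell and 3 rose (median −0.18). In families picked by symbol, which do not match that list gene for gene, 22 of 40 large and 13 of 30 small subunit genes fell. These genes have many processed copies in the genome, and how such reads were counted was not given in the sources used here. Ribosome assembly genes were evenly placed (16 up and 10 down of 60, median 0.00). Proteasome genes leaned upward, 21 of 40 (median 0.10), none 2-fold, led by Psmb8 (0.55) and Psmd8 (0.49). These shifts were small beside that of the mitosis list.

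**Figure D4:**
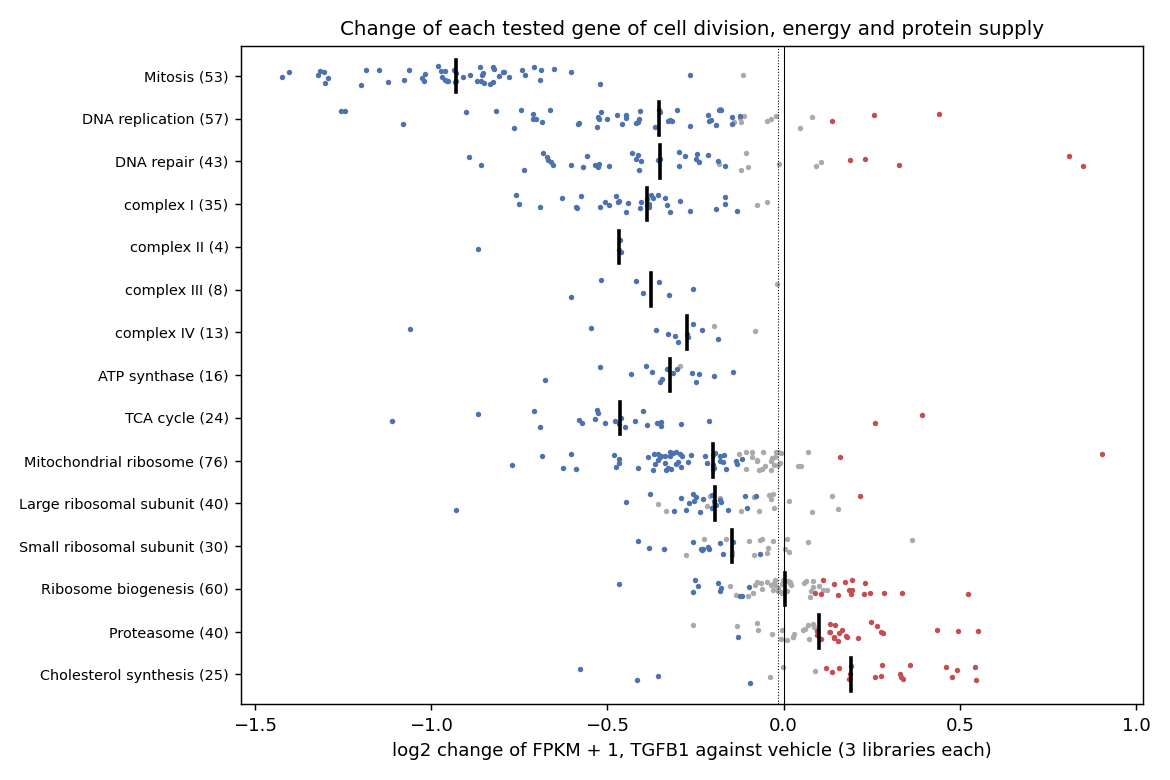
Log2 change of FPKM + 1 (horizontal axis, TGFB1 against vehicle, 3 libraries each) of each tested gene in 15 sets, with the number tested in parentheses. Red, blue and grey dots are genes called higher, called lower and not called, black bars are medians and the dotted line is the median of all genes. Mitosis genes lie farthest to the left, respiratory chain complexes lie together to the left of 0, and ribosome biogenesis is centred on 0.

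Of 26 genes of sugar breakdown 11 rose and 9 fell, near the shares over all genes (median 0.04). Fbp1, an enzyme of glucose synthesis, was at 40.6, 37.9 and 38.3 FPKM with vehicle and 8.51, 8.20 and 8.98 FPKM with TGFB1 (log2 change −2.06, SE 0.05, adjusted p = 5.81e-11). Hk2, the hexokinase of growing cells, rose from 37.9 to 63.0 FPKM (0.72) and the lactate exporter Slc16a3 from 167 to 259 FPKM (0.63). Khk, ketohexokinase, which starts fructose breakdown and is in none of the lists, fell from 126 to 30.0 FPKM (−2.04).

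Of 29 genes of fatty acid oxidation and ketone synthesis 19 fell (2 at least 2-fold) and 5 rose (2 at least 2-fold). Acat1, a thiolase of ketone metabolism, rose from 33.6 to 73.9 FPKM (1.11) and Bdh1, which makes hydroxybutyrate, from 98.1 to 143 FPKM (0.54). Hadh fell from 271 to 133 FPKM (−1.02) and Ehhadh from 29.9 to 16.4 FPKM (−0.83). Cholesterol synthesis rose mildly, 18 of 25 genes with a median of 0.19, for example Mvd from 76.5 to 112 FPKM (0.54). Hmgcs1 was listed at 0 in all 6 libraries.

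Nitrogen metabolism fell in 24 of 35 genes, 9 at least 2-fold, and rose in 6 (median −0.69). Cps1, which starts citrulline synthesis in enterocytes, was at 551, 555 and 544 FPKM with vehicle and 297, 297 and 305 FPKM with TGFB1 (log2 change −0.87, SE 0.03, adjusted p = 6.27e-10). Arg2, a mitochondrial arginase, was at 15.3, 17.5 and 15.7 FPKM with vehicle and 2.32, 2.08 and 2.68 FPKM with TGFB1 (log2 change −2.35, SE 0.08, adjusted p = 7.37e-10). Ass1, which uses citrulline to rebuild arginine, was at 2.89, 3.10 and 3.31 FPKM with vehicle and 15.0, 15.0 and 15.2 FPKM with TGFB1 and moved up (log2 change 1.97, SE 0.05, adjusted p = 2.41e-10). Sat1, which acetylates polyamines, rose from 169 to 438 FPKM (1.37), and the nitric oxide synthase Nos2 fell from 10.2 to 2.55 FPKM (−1.65).

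Stress systems did not share a direction. Genes of folding in the endoplasmic reticulum fell mildly, 18 of 27 (median −0.21), although the chaperone Hspa5 rose slightly (from 302 to 331 FPKM, 0.13). The heat shock genes Hspa1a (from 1.84 to 5.83 FPKM) and Hspa1b (from 5.85 to 15.1 FPKM) rose, while the mitochondrial chaperones Hspd1 (from 187 to 124 FPKM) and Hspe1 (from 176 to 119 FPKM) fell. The metallothioneins, which bind zinc and copper, fell: Mt2 was at 636, 702 and 722 FPKM with vehicle and 221, 210.3 and 214 FPKM with TGFB1 (log2 change −1.67, SE 0.05, adjusted p = 2.60e-10), and Mt1 fell from 1027 to 483 FPKM (−1.09). Hmox1, heme oxygenase, was at 23.3, 24.0 and 24.2 FPKM with vehicle and 72.2, 78.7 and 80.7 FPKM with TGFB1 (log2 change 1.65, SE 0.05, adjusted p = 2.07e-10). Duox2, an epithelial oxidase that makes hydrogen peroxide, rose with its maturation factor Duoxa2 (from 8.78 to 28.7 FPKM and from 10.8 to 36.2 FPKM). Nqo1 fell from 55.1 to 36.1 FPKM (−0.60). The hypoxia list had 13 rises and 7 falls among 25 genes and no 2-fold change.

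Interferon-stimulated genes rose in 24 of 31 cases and fell in 1 (median 0.42). Irf7, the amplifier of the interferon response, was at 12.4, 10.4 and 11.8 FPKM with vehicle and 16.9, 19.3 and 17.9 FPKM with TGFB1 (log2 change 0.60, SE 0.07, adjusted p = 1.73e-05). Rtp4 was at 2.05, 2.09 and 1.65 FPKM with vehicle and 8.20, 9.97 and 8.03 FPKM with TGFB1 (log2 change 1.73, SE 0.09, adjusted p = 3.39e-08). Of 26 antigen presentation genes 11 rose (7 among those of at least 5 FPKM) and 8 fell, near the shares over all genes, with a median of 0.01. Among class II genes, Cd74, the invariant chain, was at 26.5, 27.9 and 24.3 FPKM with vehicle and 89.4, 80.5 and 79.9 FPKM with TGFB1 (log2 change 1.63, SE 0.06, adjusted p = 1.71e-09). H2-Aa (from 0.796 to 3.65 FPKM, 1.35) and H2-Eb1 (from 1.86 to 5.88 FPKM, 1.28) rose with it. Of class I, B2m was 757, 828 and 804 FPKM with vehicle and 803, 769 and 745 FPKM with TGFB1, with overlap (adjusted p = 0.339, and 0.0404 after quantile normalization). H2-K1 rose from 234 to 247 FPKM (0.08, adjusted p = 0.0342), a call that was lost without vehicle replicate 2 or 3 or TGFB1 replicate 1 or 3 (log2 change 0.07 to 0.08, adjusted p = 0.0648 to 0.118). The nonclassical genes H2-Q1 (from 11.7 to 3.35 FPKM) and H2-T3 (from 6.31 to 1.73 FPKM) fell. Leukocytes also express class II genes. Among their markers Cd68 rose as given above, Csf1r was listed at 0.0877 to 0.141 FPKM with vehicle and 0.401 to 0.589 FPKM with TGFB1, Itgam fell, and Ptprc was at no more than 0.0584 FPKM. Their part in this result was not tested.

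Epithelial cytokines changed in both directions. Of 29 tested 18 rose (8 at least 2-fold) and 6 fell. The alarmin Il33 was at 4.12, 4.81 and 5.09 FPKM with vehicle and 19.0, 20.6 and 19.2 FPKM with TGFB1 (log2 change 1.86, SE 0.07, adjusted p = 1.66e-09). The interleukin 1 antagonist Il1rn rose from 5.76 to 24.4 FPKM (1.91), Il34, a ligand of the macrophage receptor CSF1R, from 0.232 to 7.68 FPKM (2.81) and Cxcl16 from 44.3 to 135 FPKM (1.59). Ccl20, which draws lymphocytes to the epithelium, fell from 14.0 to 5.40 FPKM (−1.24), and the death ligand Tnfsf10 from 8.22 to 1.88 FPKM (−1.68). Tnfrsf11b, osteoprotegerin, a decoy receptor for Tnfsf10 and for the bone cytokine RANKL, was at 1.95, 1.69 and 1.98 FPKM with vehicle and 64.5, 70.5 and 68.9 FPKM with TGFB1 (log2 change 4.58, SE 0.06, adjusted p = 2.52e-12). The sensor Tlr2 rose from 0.565 to 4.47 FPKM (1.81) and Il18 fell from 21.2 to 12.5 FPKM (−0.72).

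Receptors of the TNF family changed in both directions, 7 up (5 at least 2-fold) and 4 down of 15. Beside Tnfrsf11b, the decoy receptors Tnfrsf23 (from 9.90 to 47.8 FPKM, 2.16) and Tnfrsf22 (from 0.879 to 4.83 FPKM, 1.63) rose. Tnfrsf1b, the inducible TNF receptor, rose from 5.14 to 15.0 FPKM (1.38), while Tnfrsf1a, the general one, fell from 49.4 to 41.7 FPKM (−0.24), and so did the lymphotoxin receptor Ltbr (from 75.6 to 59.7 FPKM, −0.34). Serpins, inhibitors of serine proteases, rose in 5 of 8 cases, and Serpinb1a, which blocks neutrophil elastase, went from 118 to 263 FPKM (1.14). Of 8 Ly6 family genes 7 rose, among them Ly6d from 31.6 to 148 FPKM (2.21) and Lypd8, which binds bacteria in the mucus, from 417 to 996 FPKM (1.26).

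Single genes of water and ion channels changed far. Aqp5, a water channel of glands, was at 1.18, 1.09 and 1.27 FPKM with vehicle and 8.54, 7.80 and 7.96 FPKM with TGFB1 (log2 change 2.06, SE 0.07, adjusted p = 7.43e-10). Aqp1, a water channel of many epithelia and vessels, was at 66.0, 60.9 and 62.4 FPKM with vehicle and 14.1, 11.8 and 14.4 FPKM with TGFB1 (log2 change −2.16, SE 0.07, adjusted p = 1.07e-09). The levels of these genes thus went in opposite directions. Ano1, a calcium-activated chloride channel, was at 5.70, 5.18 and 4.94 FPKM with vehicle and 43.5, 45.9 and 45.6 FPKM with TGFB1 (log2 change 2.88, SE 0.05, adjusted p = 1.60e-11). The calcium-activated potassium channel Kcnn4 rose with it (from 20.5 to 61.1 FPKM, 1.53), while Clic5, a protein of the microvillus base, fell from 24.3 to 11.7 FPKM (−0.999) and Ano6, a lipid scramblase, from 39.7 to 21.8 FPKM (−0.83). Carbonic anhydrases moved less: Car2 rose from 25.3 to 38.2 FPKM (0.58) and Car12 fell from 15.8 to 14.0 FPKM (−0.16). Of 29 potassium and chloride channel genes 11 rose and 10 fell, near the shares over all genes (6 lower among genes of at least 5 FPKM).

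In the list of basement membrane and matrix genes, which also holds galectins, 7 of 10 tested rose and 3 fell. The other 22 of its 32 genes were under the limit of the tests, among them Col4a1 and Col4a2. Lgals3, a galectin of epithelia, was at 81.9, 77.1 and 79.2 FPKM with vehicle and 656, 680.5 and 631 FPKM with TGFB1 (log2 change 3.03, SE 0.04, adjusted p = 2.52e-12). Lgals1 rose from 35.4 to 164 FPKM (2.18), while Hspg2, perlecan, fell from 7.98 to 5.60 FPKM (−0.44) and Dag1, dystroglycan, from 94.8 to 80.7 FPKM (−0.23). In the list of Hedgehog, FGF and Eph signalling 7 rose and 5 fell of 19 (median 0.07), near the shares over all genes. Of its receptors, Fgfr4 rose from 1.94 to 9.05 FPKM (1.77) and Epha2 from 26.3 to 56.6 FPKM (1.08), whereas Fgfr3 fell from 9.08 to 5.57 FPKM (−0.62) and so did the hormone gene Fgf15 (from 7.21 to 4.07 FPKM, −0.70).

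Lysosomal and autophagy genes changed in both directions. Of 34 tested 16 rose and 7 fell (median 0.08). The autophagy receptor Sqstm1 was at 99.9, 104 and 103 FPKM with vehicle and 199, 212 and 208 FPKM with TGFB1 (log2 change 1.004, SE 0.03, adjusted p = 1.05e-09), and the autophagosome genes Map1lc3a (from 24.2 to 53.3 FPKM, 1.11) and Gabarapl1 (from 28.0 to 56.2 FPKM, 0.98) rose with it. The hydrolases Hexa (from 107 to 76.1 FPKM, −0.48) and Glb1 (from 57.4 to 45.8 FPKM, −0.32) fell. Among lipid synthesis genes Me1, which supplies NADPH, rose from 21.0 to 62.3 FPKM (1.53), and Gpam, which starts triglyceride synthesis, fell from 13.3 to 5.12 FPKM (−1.22). Of 20 tRNA synthetase genes 9 fell and 4 rose, none 2-fold, with the largest called fall in Mars (−0.49). The linker histone gene Hist1h1c rose from 17.9 to 47.6 FPKM (1.37), and the DNA damage histone H2afx fell from 102 to 55.9 FPKM (−0.86).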

How the data were processed

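RNA was extracted with the QIAGEN RNeasy Micro kit and libraries were made with an in-house BGI kit, per the labels' protocols. The values are FPKM as the authors deposited them, 1 table for the 6 libraries. The submitters' processing notes name TopHat2 2.1.0, Cuffnorm 2.2.1, Cuffdiff 2.2.1, STAR 2.7.10a and Salmon 1.4 for the series, with the builds mm9, GRCm39 and mm39. Which of these made that table was not given in the sources used here. How the FPKM were scaled between libraries was not given there either, and the depth is unknown. Whole reads were not recovered from the steps between low values.

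Genes that averaged 1 FPKM or more over the 6 libraries were tested as log2(FPKM + 1) with limma 3.58.1 in R 4.3.3 (trend, robust empirical Bayes, no block), with Benjamini-Hochberg adjustment over all 11330. Log2 changes are on that scale and understate changes of low genes. The samples were grouped by their titles. All members and lists were chosen with earlier results of these data known, so each list is described by counts and its median, without a test. Gene families by symbol and the printed promoters were chosen after the values were seen.

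Named genes are the key members of each list, up to 4 of its largest rises and 4 of its largest falls among called genes whose groups did not overlap, and, outside the lists, the 20 largest rises and 20 largest falls with at least 10 FPKM in the higher group. The text names a part of these, and some items are not reported here. The limma step was checked on simulated data. The alternatives were another pseudocount (0.1), a mean of at least 5 FPKM or none, median-ratio scaling, quantile normalization, the replicate block, ordinary empirical Bayes and leaving out each library.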

Additional observations from a re-analysis of the deposited data

How the results depend on the processing

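Of 11330 genes tested, 7732 were called, and the alternatives gave 6334 (mean of at least 5 FPKM, so fewer genes tested) to 8372 (no filter, so more genes tested). Leaving out 1 library gave 7218 to 7596 calls and 926 to 969 that were called and at least 2-fold, against 956. With the replicate block 7701 genes were called, and Axin2 and Hes1 passed (limma adjusted p = 0.0451 and 0.0456). The replicate numbers share no stated origin: correlations of deviations between same-numbered libraries were −0.03, 0.16 and 0.05, and not every library correlated best with its own number. With a pseudocount of 0.1 the calls of at least 2-fold were 1214. Quantile normalization gave 3500 higher and 4277 lower. Of 555 named genes 479 could be tested under all 13 alternatives, and 453 of these kept their call in each. Under quantile normalization Qars changed sign to a log2 change of −0.00998 (limma adjusted p = 0.774); the cause was not tested. FPKM without counts limits what can be said of low genes: counting error cannot be separated from other spread.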

Other observations

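Among genes in none of the lists, several ion channels, enzymes and membrane proteins changed by amounts like those of the pathway genes. P2rx2, an ATP-gated cation channel, was at 1.04, 0.832 and 1.51 FPKM with vehicle and 53.5, 59.1 and 54.6 FPKM with TGFB1 (log2 change 4.75, SE 0.10, adjusted p = 3.78e-10). Slc4a11, a membrane transporter, went from 1.299 to 27.6 FPKM (3.64). Alox12, a lipoxygenase, went from 0.00331 to 13.6 FPKM (3.87), and Vill, a relative of villin, from 1.25 to 32.2 FPKM (3.88). Trim29, a gene of stratified epithelia, rose from 0.675 to 23.4 FPKM (3.86). Lower with TGFB1 were both monoamine oxidases, Maoa (from 68.4 to 12.4 FPKM, −2.37) and Maob (from 12.3 to 2.00 FPKM, −2.14), which break down serotonin and other amines. Leap2, which encodes a peptide that blocks the ghrelin receptor, was at 19.5, 20.9 and 16.9 FPKM with vehicle and 2.65, 2.04 and 3.29 FPKM with TGFB1 (log2 change −2.47, SE 0.12, adjusted p = 2.30e-07).

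By gene family, tubulins rose in 8 and fell in 2 of 11 cases (median log2 change 0.93). Galectins rose in 7 and fell in 2 of 9, and tetraspanins rose in 11 and fell in 3 of 16. Solute carriers, the largest transporter family, rose in 61 and fell in 98 of 216 cases (median −0.07). Zinc finger genes of the Zfp series stayed near 0, with 46 rises and 75 falls among 245 and a median of −0.03. These families were picked by symbol after the values were seen and are given as a description.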
